A study of Mus musculus with 9 samples.

Results

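The 10 genes described here are early feedback genes of the TGF-beta and BMP pathways: Id1, Id2, Id3, Id4, Smad6, Smad7, Ski, Skil, Tgif1 and Bambi. They were chosen by name, with earlier results of these data known. All 10 were found in the deposited table, among 17559 genes with values, and all 10 passed the filter on low values (at least 1 FPKM in at least 3 libraries). The cells were peritubular myoid cells in primary culture, isolated from testes of C57BL/6J mice and kept in DMEM/F12 with fetal bovine serum at 37 °C, so transcripts of other testis cells can be present. The control group was untreated. The dishes of both heated groups spent 30 min in a water bath at 42 °C and went back to the incubator, and the cells were collected 1 h or 6 h after the heat. Each group holds 3 libraries, 9 in all. The labels number the replicates without saying whether they are separate animals or cultures, so each p-value reflects how much these 9 libraries vary, and that variation may be technical.

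TGF-beta, activins and BMPs bind serine/threonine kinase receptors, which phosphorylate receptor-regulated SMAD proteins. These join SMAD4, enter the nucleus and switch on target genes, and among the quickest targets are genes whose products turn the signal down. SMAD6 and SMAD7 compete at the receptors and recruit ubiquitin ligases, SKI, SKIL (SnoN) and TGIF1 are co-repressors that hold SMAD complexes inactive on DNA, and BAMBI is a pseudoreceptor without a kinase. The ID proteins are direct BMP targets that bind E proteins, which are helix-loop-helix transcription factors, and keep them off DNA. Peritubular myoid cells are the flattened contractile cells around the seminiferous tubules, and signals of this family act in the testis between Sertoli, germ and peritubular cells.

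The values are FPKM, a level per transcript length and per mapped fragment, which allows genes to be compared with each other. Each library held an estimated 19000000 to 19600000 reads. The heat treatment showed in every library of the 1 h group: Hspa1a, an inducible HSP70, stood at 1228 to 1794 FPKM there, beside 6.92 to 12.3 FPKM in the controls. In 6 h replicates 1 to 3 Hspa1a stood at 49.3, 27.1 and 40.4 FPKM, above all controls. Acta2 and Tagln, contractile markers of myoid cells, were abundant in all 9 libraries, at 992 to 1627 and 1602 to 2231 FPKM. A pair of libraries stood apart. Control replicate 3 carried 2700 FPKM of the Sertoli transcript Clu, at most 437 FPKM elsewhere. The other, 6 h replicate 2, had 264 FPKM of the chaperone Hsp90aa1, beside 1307 and 703 FPKM in the other 6 h libraries. Hsp90aa1 was among the genes most like Smad7 over the 9 libraries, so its low value there is not independent of the low Smad7. For every one of the 10 genes the lowest of the 9 values fell in control replicate 3 or in 6 h replicate 2. Control replicate 3 was lowest for Id1, Id2, Id3, Smad6 and Bambi, and 6 h replicate 2 was lowest for Id4, Smad7, Ski, Skil and Tgif1. Over all genes tested, 11.4% had their lowest value in control replicate 3 and 26.4% in 6 h replicate 2. On the high side, 1 h replicate 3 held the highest of the 9 values for Id2, Id3, Id4, Smad7, Skil and Tgif1, 6 of the 10, where 3.63% of all genes were highest. Without it the 1 h change described below was 1.40 for Smad7 and 0.88 for Skil, with limma adjusted p of 0.61 and 0.77, and it was -0.03 for Id4. For the 10 genes, values without these libraries are given where they move a result. For the single other pathway genes described below no such values are given.

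In untreated cells the family spanned a wide range of levels. Id3 was highest, at 199 ± 103 FPKM (SD, n = 3), followed by Id1 at 104 ± 55 and Id2 at 75.9 ± 44.4 FPKM. Tgif1, Smad6, Ski, Smad7 and Skil formed a middle band, at 37.9 ± 5.1, 27.0 ± 17.0, 24.6 ± 3.6, 17.5 ± 3.4 and 12.5 ± 1.7 FPKM. Bambi and Id4 were lowest, at 4.13 ± 1.16 and 2.74 ± 1.38 FPKM. Neighbours in this order overlapped between libraries except Ski and Smad7, and Skil and Bambi. Within each control library, Id3 was nonetheless above Id1, and Id1 above Id2. The order shifted at 1 h. Smad7, the seventh of the 10 by mean in the controls, was the fourth at 1 h. Skil was below Ski in all 3 controls and above it in all 3 libraries at 1 h.

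**Figure D1:**
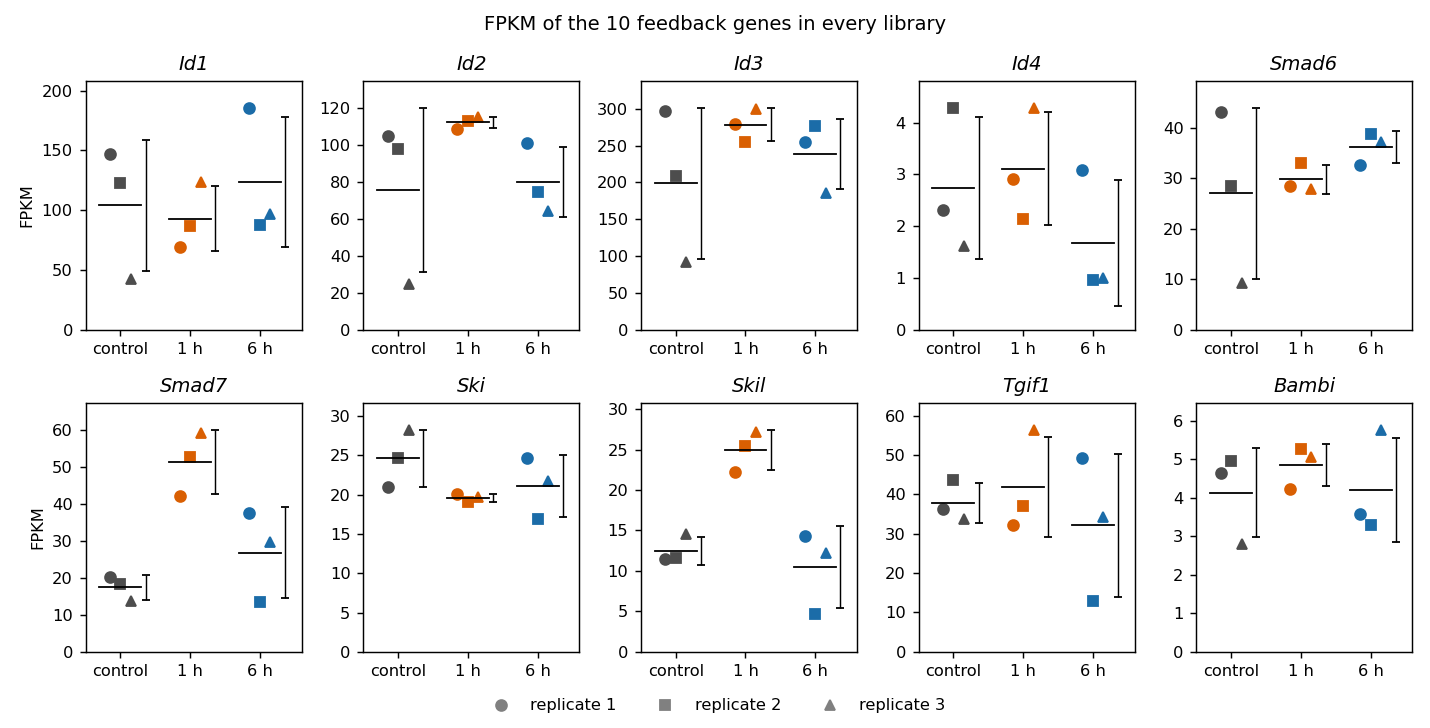
FPKM (linear axis from 0) of each of the 10 genes in the 9 libraries, grouped as control, 1 h and 6 h after heat; points are libraries, the marker shape is the replicate number, the line is the group mean and the bar beside it is the SD. The 1 h libraries of Smad7 (42.25 to 59.34 FPKM) and Skil (22.23 to 27.16 FPKM) lie above all libraries of both other groups, and control replicate 3 is the low triangle for Id1, Id2, Id3 and Smad6.

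Smad7, the inhibitory SMAD that acts on both TGF-beta and BMP receptors, lies on chromosome 18 (mm10, 75367365 to 75395934, plus strand, NCBI gene 17131). It stood at 20.26, 18.44 and 13.67 FPKM in controls 1 to 3, at 42.25, 52.84 and 59.34 FPKM at 1 h, and at 37.52, 13.40 and 29.67 FPKM at 6 h. Every 1 h library was above every control and above every 6 h library. The 1 h mean was 2.95 times the control mean, 51.5 ± 8.6 against 17.5 ± 3.4 FPKM (SD, n = 3). The log2 change on the log2(FPKM + 1) scale was 1.51 (SE 0.33), with an unadjusted p of 0.0012 and a limma adjusted p of 0.18 over the 11460 genes tested, so the gene did not pass the threshold of 0.05. The call changed with the libraries in the fit, and the adjustment also uses the p of every other gene tested. Over 21 alternative fits the limma adjusted p was at most 0.63 and the unadjusted p at most 0.0061. Fitted without any 6 h library, the limma adjusted p was 0.028, and with all groups but without 6 h replicate 2 it was 0.020. With the replicate number as a block in the fit of only the control and 1 h groups, the limma adjusted p was 0.086. The labels do not say that same-numbered libraries are pairs. Leaving out control replicate 3 gave a change of 1.35. From 1 h to 6 h the log2 change was -1.02 (SE 0.33, limma adjusted p 0.30), or -0.60 without 6 h replicate 2. At 6 h replicates 1 and 3 were above all controls and replicate 2 was below all of them. The difference of 6 h from control was 0.50 with a 95% interval of -0.25 to 1.24 (limma adjusted p 0.88), and 0.91 without 6 h replicate 2 (adjusted p 0.90). Its unadjusted limma p was below 0.05 in 3 of 21 alternative fits, those with array weights or without 6 h replicate 2. It was called in 0 of them.

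Smad6, the inhibitory SMAD that acts mainly on BMP receptors, lies on chromosome 9 (63953076 to 64022059, minus strand, NCBI gene 17130) and did not share this course. It stood at 43.24, 28.53 and 9.35 FPKM in the controls, 28.45, 33.12 and 27.90 FPKM at 1 h, and 32.68, 38.88 and 37.21 FPKM at 6 h. Both heated groups were tight, with SDs of 2.87 and 3.21 FPKM, and lay within the range of the controls, which differed among themselves by 4.62 times. The log2 change was 0.37 at 1 h (95% interval -0.59 to 1.33) and 0.64 at 6 h (-0.32 to 1.60), with limma adjusted p of 0.71 and 0.88. Without control replicate 3 the changes were -0.23 and 0.04, so the direction at 1 h rested on that library. Taken within a library, where depth and scaling cancel, Smad7 was 0.47, 0.65 and 1.46 times Smad6 in the controls, 1.49, 1.6 and 2.13 times at 1 h, and 1.15, 0.34 and 0.80 times at 6 h. Smad7 exceeded Smad6 in all 3 libraries at 1 h, in 1 of the controls and in 1 of the 6 h libraries. The gap between the highest control and the lowest 1 h ratio was small, and the high control was replicate 3, where Smad6 itself was low.

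Skil encodes SnoN, a co-repressor of SMAD2, SMAD3 and SMAD4, on chromosome 3 (31095058 to 31122923, plus strand, NCBI gene 20482, 3 transcripts). It stood at 11.42, 11.57 and 14.51 FPKM in the controls, at 22.23, 25.44 and 27.16 FPKM at 1 h, and at 14.35, 4.71 and 12.23 FPKM at 6 h. The 1 h libraries again lay above all others, and the 6 h libraries overlapped with the controls. The 1 h mean was 2.0 times the control mean, 24.9 ± 2.5 against 12.5 ± 1.7 FPKM (SD, n = 3). The log2 change was 0.95 (SE 0.32) with an unadjusted p of 0.016 and a limma adjusted p of 0.40. As for Smad7, the spread of the 6 h libraries entered that p, which was at most 0.77 over 21 alternative fits. It was 0.058 when the 6 h libraries were left out of the limma fit, 0.073 with the replicate block in addition, and 0.039 with all groups but without 6 h replicate 2. Without control replicate 3 and 6 h replicate 2 together the limma adjusted p was 0.049 and the change 1.05. From 1 h to 6 h the log2 change was -1.30 (SE 0.32, unadjusted p 0.0028, limma adjusted p 0.17), and -0.86 without 6 h replicate 2, a change by more than 1.5 times. At 6 h Skil differed from control by -0.35 (95% interval -1.08 to 0.37), and by 0.09 without 6 h replicate 2.

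Ski, the founding member of that family, lies on chromosome 4 (155154075 to 155222535, minus strand, NCBI gene 20481) and was on the other side of control at 1 h, within a narrow range. Its values were 20.97, 24.63 and 28.24 FPKM in the controls, 20.09, 19.08 and 19.71 FPKM at 1 h, and 24.64, 16.86 and 21.77 FPKM at 6 h. All 1 h libraries were below all controls, by a log2 change of -0.30 (95% interval -0.68 to 0.08, limma adjusted p 0.51). The median change of all genes tested was -0.168 at 1 h, and 21.4% of them lay below all controls there, so a position like that of Ski was common. Within a library Skil was 0.54, 0.47 and 0.51 times Ski in the controls, 1.11, 1.33 and 1.38 times at 1 h, and 0.58, 0.28 and 0.56 times at 6 h. Skil was above Ski in every 1 h library and below it in the other 6. These ratios were chosen after the values were seen and were not tested.

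**Figure D2:**
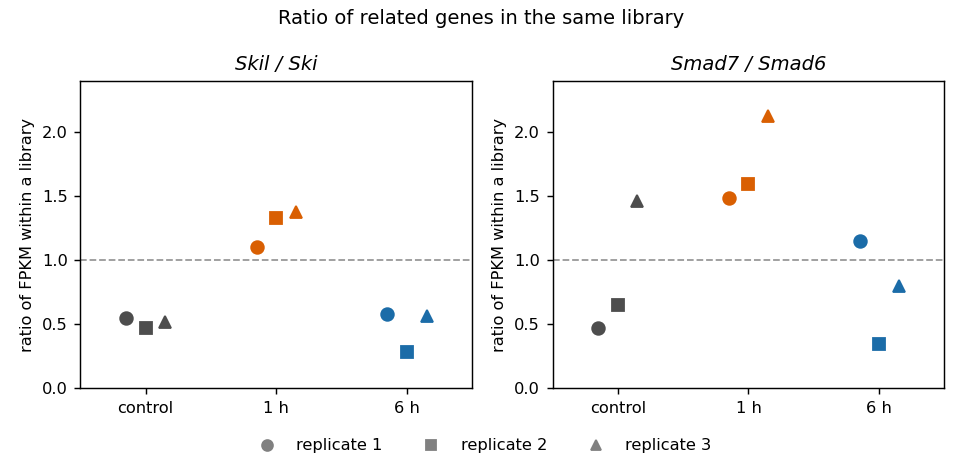
Ratio of FPKM of Skil to Ski (left) and of Smad7 to Smad6 (right) within each library, by group; points are libraries, the marker shape is the replicate number and the dashed line marks equal levels. Skil is above Ski in the 3 libraries of the 1 h group and in no other library, while Smad7 also exceeds Smad6 in control replicate 3 and in 6 h replicate 1.

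The ID genes were the most abundant of the 10, apart from Id4. Id1 lies on chromosome 2 (152736251 to 152737410), Id2 on chromosome 12 (25093799 to 25096092), Id3 on chromosome 4 (136143822 to 136145392) and Id4 on chromosome 13 (48261427 to 48264036). Among the 8 members with a mean of at least 5 FPKM, Id2 and Id3 had the closest courses over the 9 libraries (Pearson r = 0.93 of log2(FPKM + 1), a description over libraries that share scaling). Both were lowest in control replicate 3, as were Id1 and Smad6. The 250 bases before their start sites, from RefSeq on GRCm38.p6, are shown because these members varied together, with the SMAD elements GGCGCC and CAGAC, searched on both strands, in capitals.
Id2 (chr12:25096093-25096342, minus strand): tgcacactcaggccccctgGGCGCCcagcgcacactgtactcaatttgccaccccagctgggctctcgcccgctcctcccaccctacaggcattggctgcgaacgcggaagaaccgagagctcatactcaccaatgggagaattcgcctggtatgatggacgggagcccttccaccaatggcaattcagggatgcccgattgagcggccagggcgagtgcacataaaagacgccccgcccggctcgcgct
Id3 (chr4:136143572-136143821, plus strand): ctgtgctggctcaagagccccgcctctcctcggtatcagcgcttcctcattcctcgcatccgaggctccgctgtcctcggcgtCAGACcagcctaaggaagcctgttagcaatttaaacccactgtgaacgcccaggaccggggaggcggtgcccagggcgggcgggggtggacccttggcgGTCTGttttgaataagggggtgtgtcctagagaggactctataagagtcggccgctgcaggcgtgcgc
The Id2 window held 1 GGCGCC and no CAGAC, and the Id3 window held 2 CAGAC and no GGCGCC. Over 32851 promoter windows of the same length, 9.59% held GGCGCC and 42.2% held CAGAC. The Id2 and Id3 windows were each 62.8% G and C, where the median of all windows was 52.4%, so these shares are not matched for base content. Windows of 6 of the 10 genes were matched (Id2, Id3, Id4, Smad6, Ski and Tgif1). The 8-base cores of heat-shock elements, GAANNTTC and TTCNNGAA, were in none of their 10 windows, and were in 6.69% and 7.17% of all windows. At such shares 10 windows can easily hold none. Most of these windows were above the median in G and C, and Smad7 and Skil had no window. The absence therefore says nothing about the 10 genes. Among the other matched windows, those of Id4 and Ski held 1 GGCGCC each, and some of Tgif1 held CAGAC. The letters describe these windows only.

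Id2 stood at 104.94, 98.11 and 24.79 FPKM in the controls, at 109.00, 113.28 and 115.06 FPKM at 1 h, and at 101.37, 74.43 and 64.29 FPKM at 6 h. The 1 h libraries did not overlap with either of the other groups, and they agreed to within 1.06 times. Controls 1 and 2 were close to them, with a mean of 102 FPKM, and control 3 was far below. The log2 change was 0.81 at 1 h (95% interval -0.24 to 1.86, limma adjusted p 0.52) and 0.15 without control replicate 3. From 1 h to 6 h it was -0.51 (limma adjusted p 0.70), and without control replicate 3, whose spread then leaves the fit, the unadjusted p went from 0.30 to 0.018 (adjusted p 0.26). Id3 followed at 296.58, 208.06 and 91.66 FPKM in the controls, 279.43, 255.42 and 299.98 FPKM at 1 h and 254.62, 276.79 and 185.49 FPKM at 6 h. Its log2 change at 1 h was 0.64 (95% interval -0.19 to 1.46, limma adjusted p 0.52), or 0.16 without control replicate 3, and the groups overlapped.

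Id1 stood at 147.26, 122.53 and 42.07 FPKM in the controls, 69.33, 86.47 and 123.30 FPKM at 1 h, and 185.80, 87.26 and 97.00 FPKM at 6 h. Its groups overlapped throughout, with log2 changes of -0.01 at 1 h and 0.34 at 6 h (limma adjusted p 0.99 and 0.91). Without control replicate 3 these were -0.57 and -0.21, and with median-of-ratios scaling the 1 h change was 0.16, so no direction can be given. Relative to Id3 in the same library, Id1 stood at 0.50, 0.59 and 0.46 in the controls and at 0.25, 0.34 and 0.41 at 1 h, below every control ratio in all 3 libraries, a ratio that was chosen after the values were seen and was not tested. At 6 h the ratio ranged from 0.32 to 0.73. Id4, known for its role in spermatogonia, was the lowest member. It stood at 2.31, 4.28 and 1.62 FPKM in the controls, 2.91, 2.13 and 4.29 FPKM at 1 h and 3.08, 0.96 and 0.99 FPKM at 6 h. These values rest on an estimated 31 to 135 reads, where the other members had at least 268. The change from 1 h to 6 h was -0.67 (95% interval -1.48 to 0.13, limma adjusted p 0.51).

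Control replicate 3 held 42.07 FPKM of Id1, 24.79 of Id2, 91.66 of Id3 and 9.35 of Smad6, which is 3.21, 4.10, 2.75 and 3.84 times below the mean of the other controls. Of all genes tested, 5.71% were at least 2 times below that mean in this library. Skil and Ski were not low there, at 14.51 and 28.24 FPKM. Markers of several cell types moved with this library. Of 14 Sertoli markers 11 were highest of the 9 libraries in control replicate 3, and their summed level was 3243 FPKM there, beside 344 and 438 FPKM in the other controls and 308 to 604 FPKM in the heated groups. Of 9 endothelial markers 8 were below both other controls, with summed levels of 114, 82.7 and 47.2 FPKM in controls 1 to 3, led by Cdh5 and Emcn. In the heated groups the endothelial sum was 33.1 to 74.3 FPKM. Of 8 contractile markers 6 were highest in control replicate 3. Leydig markers summed to 2184, 2124 and 966 FPKM in the controls and 905 to 2090 FPKM elsewhere. The low sum followed Insl3, at 1607, 1587 and 181 FPKM in controls 1 to 3. Of 9 Leydig markers 4 were below both other controls in replicate 3, while Cyp11a1, Star and Nr5a1 were above both, at 452, 211 and 55.3 FPKM. Macrophage markers summed to 54.5 to 92.7 FPKM in the controls and 45.2 to 282 FPKM elsewhere. Germ cell markers summed to at most 8.12 FPKM in any library. The part of the Sertoli and endothelial transcripts in the low ID and Smad6 values was not tested. In bulk samples fewer cells of a type and less RNA per cell cannot be told apart.

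**Figure D3:**
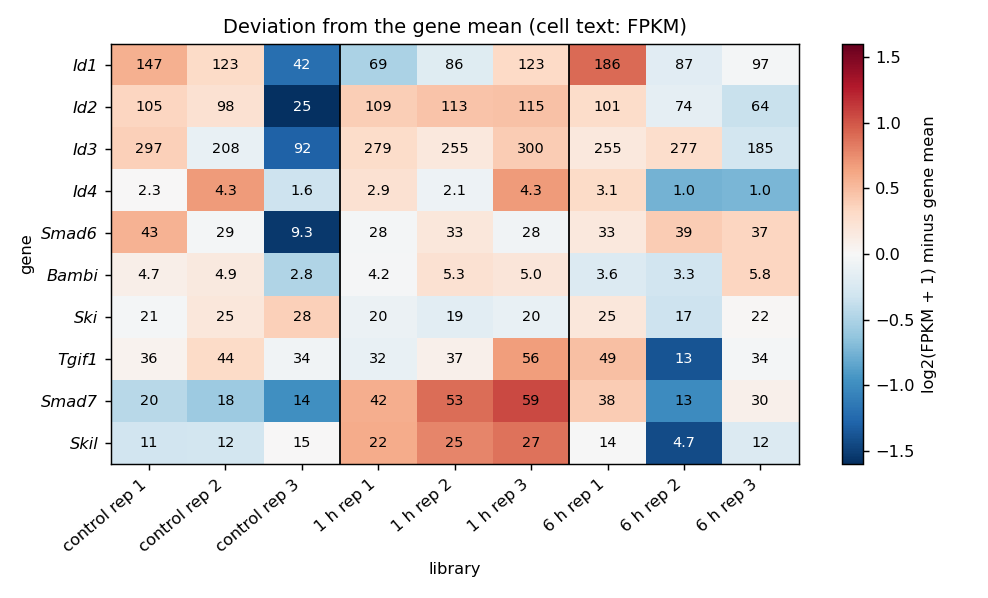
Deviation of log2(FPKM + 1) from the gene's mean over the 9 libraries (colour) for the 10 genes (rows) and libraries (columns), with FPKM written in each cell. The dark blue cells of Id2, Id3 and Smad6 fall in control replicate 3 and those of Tgif1 and Skil in 6 h replicate 2, while Smad7 and Skil are red across the 1 h group.

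Tgif1, a homeodomain co-repressor of SMAD2 and SMAD3, lies on chromosome 17 (70844205 to 70853532, 5 transcripts). It stood at 36.35, 43.54 and 33.75 FPKM in the controls, 32.11, 37.10 and 56.40 FPKM at 1 h, and 49.15, 12.84 and 34.29 FPKM at 6 h. The groups overlapped, with log2 changes of 0.11 at 1 h (95% interval -0.82 to 1.04) and -0.41 at 6 h (-1.35 to 0.52). The value at 1 h was -0.12 without 1 h replicate 3 and the value at 6 h was 0.12 without 6 h replicate 2, so each sign rested on 1 library. Bambi, the pseudoreceptor, lies on chromosome 18 (3507957 to 3516404) and was low and even, at 4.65, 4.94 and 2.80 FPKM in the controls, 4.22, 5.27 and 5.05 FPKM at 1 h and 3.58, 3.28 and 5.76 FPKM at 6 h. Its log2 change was 0.21 at 1 h (95% interval -0.32 to 0.74) and 0.02 at 6 h (-0.51 to 0.55), or 0.0088 at 1 h without control replicate 3, and an interval of that width leaves room for a moderate change in either direction.

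In 6 h replicate 2, Tgif1, Skil, Smad7 and Id4 were 3.25, 2.82, 2.51 and 2.12 times below the mean of the other 6 h libraries. Over all genes tested the median was 1.08 times and 10.7% were at least 2 times below. Smad6 and Id3 were not low there, at 38.88 and 276.79 FPKM. Hsp90aa1, a heat-inducible chaperone, was the gene second most like Smad7 over the 9 libraries (Pearson r = 0.96), after Kctd11 (r = 0.97), among 8103 genes with a mean of at least 5 FPKM. It stood at 357, 419 and 328 FPKM in the controls, 1165, 1569 and 1242 FPKM at 1 h and 1307, 264 and 703 FPKM at 6 h. The part of that library's low chaperone level in its low Smad7, Skil and Tgif1 values was not tested.

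Counted over the 10 genes, no member passed the limma test in any comparison. At 1 h against control 0 of 10 were called higher and 0 lower, where 0.157% of all genes tested were called higher and 0% lower. With the unadjusted p alone (threshold 0.05), 2 of 10 were higher (Smad7 and Skil) and 0 lower, beside 2.76% and 8.05% of all genes. Libraries did not overlap for 3 higher members (Id2, Smad7 and Skil) and 1 lower member (Ski), beside 4.49% and 21.4% of all genes. At 6 h against control 0 were called, 0 had an unadjusted p below 0.05 and 0 were free of overlap, where all genes gave 0% called in either direction, 1.27% higher and 3.35% lower unadjusted, and 1.89% and 5.32% without overlap. From 1 h to 6 h 0 members were called, beside 0% of all genes higher and 0.279% lower. Unadjusted, 2 were lower (Smad7 and Skil) and 0 higher, beside 3.19% and 8.45% of all genes. The members without overlap were 3 lower (Id2, Smad7 and Skil) and 0 higher, beside 4.97% and 15.2%. The comparisons of 1 h with control and of 6 h with 1 h share the 1 h libraries and are not independent.

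The median log2 change of the 10 genes was 0.29 at 1 h, 0.16 at 6 h and -0.37 from 1 h to 6 h, where all genes tested had -0.168, -0.060 and 0.095. Without control replicate 3 the members' median was 0.02 at 1 h and -0.20 at 6 h, so both rested on that library, while all genes had -0.153 and -0.054. The median from 1 h to 6 h was -0.21 without 6 h replicate 2 and -0.24 without 1 h replicate 3. By group mean, 7 of the 10 were highest at 1 h (Id2, Id3, Id4, Smad7, Skil, Tgif1 and Bambi), 2 at 6 h (Id1 and Smad6) and 1 in the controls (Ski). Of all genes tested 15.6%, 33.7% and 50.7% had their highest mean in those groups. Without control replicate 3 the members highest at 1 h were 6 of 10 (not Id4), beside 19.2% of all genes, and without 1 h replicate 3 they were 5 (neither Id4 nor Tgif1), beside 17.0%. The summed level of 6 stromal markers was also higher in every 1 h library (1537 to 2055 FPKM) than in any control (613 to 1068 FPKM). At 6 h the sum was 1459, 2628 and 699 FPKM in replicates 1 to 3. Col3a1 was at 601 to 811 FPKM at 1 h against 180 to 308 FPKM in the controls, and Dcn at 153 to 246 against 46.7 to 66.4 FPKM. Pdgfra and Col1a1 overlapped between these groups. The part of the stromal level in the members' values was not tested. In the authors' deposited table, the genes past both of its limits, a q-value of 0.001 and a fold of 2, include Smad7 (log2 fold 1.56) and Skil (1.01) at 1 h, no member at 6 h, and Skil (-1.28) from 1 h to 6 h. By that rule the authors' deposited table lists 7.84%, 6.45% and 4.5% of the genes it compares. At 1 h its DEGseq q-value was also below 0.001 for members whose groups overlapped, such as Smad6 (1.9e-06) and Bambi (4.3e-05). Id4 was the exception among the members (0.078). For the others the fold limit alone decided the listing at 1 h, so it adds no measure of the spread between libraries. The authors' deposited table also assigns genes to clusters by course. Id2, Smad7, Skil and Bambi share a cluster of 841 genes, 6.21% of the 13538 clustered, all with their highest group mean at 1 h. Id4 and Tgif1 share another, and Id1, Id3, Smad6 and Ski are each in a different cluster. The clusters rest on group means. Without control replicate 3 the 1 h change was 0.15 for Id2 and 0.0088 for Bambi.

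**Figure D4:**
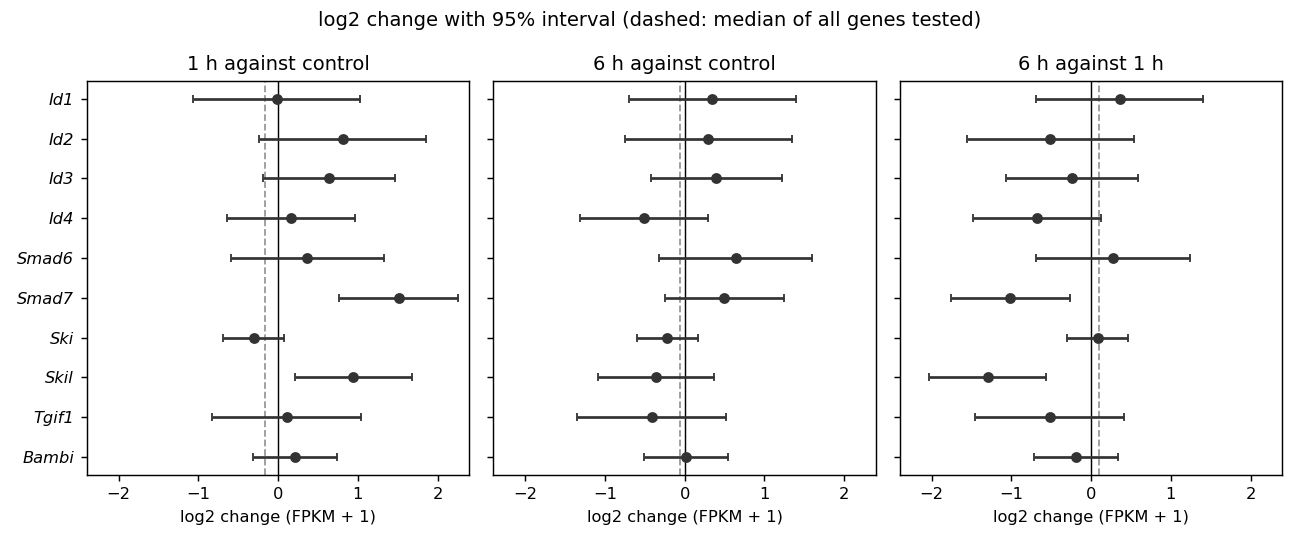
log2 change of each of the 10 genes on the log2(FPKM + 1) scale (x axis) with its 95% interval from the limma fit, for the 3 comparisons; the solid line marks no change and the dashed line the median of all genes tested. Smad7 and Skil are the genes whose unadjusted interval excludes 0, at 1 h against control (0.76 to 2.26 and 0.22 to 1.67) and at 6 h against 1 h.

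The genes most like each member over the 9 libraries were named by a fixed rule, as a description over libraries that share depth and scaling. For Skil they were Rybp (r = 0.99) and Efnb2 (r = 0.97), for Ski Map3k3 and Lrrc8d (both r = 0.98), for Tgif1 Aebp2 (r = 0.96) and Itgb1 (r = 0.94). For Id1 they were Hnrnpa0 and Srp19 (r = 0.95 and 0.94), for Id2 Tiparp and Yipf5 (r = 0.96 and 0.95), and for Smad6 Sec61g and Ppic (r = 0.95 and 0.94). Id3 was, among the 8 members compared, the one whose closest gene was another member, Id2, with Tmem119 next (r = 0.92). Id4 and Bambi, with means under 5 FPKM, were not compared. Rybp, a Polycomb-associated protein, stood at 9.0, 9.23 and 10.84 FPKM in the controls, 13.06, 16.52 and 15.57 FPKM at 1 h and 11.38, 5.09 and 9.02 FPKM at 6 h, the same order of groups as Skil with a smaller range. Smad7 and Skil correlated at 0.83, and 86 genes lay closer to Smad7 than Skil did.

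Other genes of the pathway were taken from 8 lists of 115 genes, chosen by role. No gene of these lists passed the limma test in any comparison. Among the 98 tested, the unadjusted p was under 0.05 for 9 that were higher and 4 that were lower at 1 h, for 0 and 1 at 6 h (the co-repressor Ncor1, -0.40) and for 0 and 7 from 1 h to 6 h. Over all genes tested these shares were 2.76% and 8.05%, 1.27% and 3.35%, and 8.45% and 3.19%. The higher genes at 1 h and the lower genes from 1 h to 6 h were thus above the background, and the other counts were below it. These differences were not tested, and the lists were chosen with earlier results of these data known. Of 12 tested ligands none had an unadjusted p below 0.05. Those with the smallest p were Tgfb3, a TGF-beta ligand, with a log2 change of -0.69 at 1 h (limma adjusted p 0.57), and Gdf11, an activin-like ligand, with -0.48 at 6 h (adjusted p 0.88). Tgfb3 was highest in control replicate 3, at 156 FPKM beside 63.8 and 75.9 FPKM in the other controls. So was Gdf11, at 7.45 FPKM beside 3.15 and 3.51 FPKM. Of 13 receptors and co-receptors none had an unadjusted p below 0.05. Tgfbr2, the type II TGF-beta receptor, had a log2 change of 0.46 at 1 h and Bmpr1a, a type I BMP receptor, -0.38 at 6 h (limma adjusted p 0.52 and 0.88). Bmpr1a was lowest in 6 h replicate 2, at 13.27 FPKM beside 21.74 and 17.21 FPKM in the other 6 h libraries.

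Of 6 receptor-regulated and common SMADs 1 was higher and 1 lower at 1 h by unadjusted p. Smad1, which carries the BMP signal, stood at 19.15, 14.31 and 11.86 FPKM in the controls, 24.18, 26.98 and 31.41 FPKM at 1 h and 17.45, 8.93 and 11.81 FPKM at 6 h. Its 1 h libraries were above all others, with a log2 change of 0.84 (SE 0.25, unadjusted p 0.0075, limma adjusted p 0.34). Of all genes tested 4.49% lay above all controls at 1 h, and Smad1 was named for its small p. From 1 h to 6 h it was -1.09 (adjusted p 0.14). Smad2, which carries the TGF-beta signal, was at 5.54, 6.56 and 8.15 FPKM in the controls and 4.40, 5.29 and 4.39 FPKM at 1 h, all below the controls, as were 21.4% of all genes, with a log2 change of -0.44 (limma adjusted p 0.45).

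Of 15 extracellular antagonists 2 were higher and 1 lower at 1 h by unadjusted p, and 0 and 1 from 1 h to 6 h. Fst, follistatin, which binds activins, stood at 9.46, 11.55 and 7.44 FPKM in the controls, 26.66, 25.14 and 43.97 FPKM at 1 h, and 29.81, 12.33 and 6.80 FPKM at 6 h. The 1 h libraries were above all controls, as were 4.49% of all genes, with a log2 change of 1.63 (SE 0.44, unadjusted p 0.0046, limma adjusted p 0.30). Fst, too, was named for its small p. Fstl1, a follistatin-like secreted protein, was at 342 FPKM in the controls and 481 FPKM at 1 h by group mean. Of 17 ligases, phosphatases and co-repressors 0 were higher and 2 lower by unadjusted p at 1 h, close to the 8.05% of all genes that were lower. These were the ubiquitin ligase Wwp2 and the co-repressor scaffold Sin3a, both with log2 changes near that of Smad2 (-0.51 and -0.52, limma adjusted p 0.40 and 0.43).

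Of 17 other TGF-beta targets 4 were higher and 0 lower at 1 h by unadjusted p, and 0 and 5 from 1 h to 6 h. The list's median log2 change was 0.38 at 1 h. Klf10, a zinc-finger repressor first known as TGF-beta-inducible early gene, stood at 8.34, 8.26 and 5.26 FPKM in the controls, 18.63, 16.95 and 25.10 FPKM at 1 h and 10.93, 5.38 and 9.37 FPKM at 6 h. Its 1 h libraries were above all others, with a log2 change of 1.36 (SE 0.27, unadjusted p 0.00061, limma adjusted p 0.13). Above all controls at 1 h were 4.49% of all genes, and Klf10 was named for its small p. Snai1, a zinc-finger repressor of epithelial genes, had a log2 change of 0.71 (limma adjusted p 0.39). The others were Junb (1.36) and Cyr61 (0.89), and the 5 lower from 1 h to 6 h were Klf10, Junb, Cyr61, Ctgf and Snai2 (-0.59 to -1.54), named after their values were seen. Thbs1, a matrix protein, was nearer to control at 0.20 (limma adjusted p 0.84, named after its value was seen). Of 10 tested BMP targets outside the ID and SMAD genes 1 was higher by unadjusted p at 1 h, the pseudokinase Trib3, with 0.90 (limma adjusted p 0.46). Gata3, a transcription factor, had 0.51 (adjusted p 0.49). Among 8 helix-loop-helix partners Tcf21 had 1.04 at 1 h and Tcf4, an E protein, -0.42 at 6 h (limma adjusted p 0.46 and 0.88). Tcf21 also marks stromal cells, whose 6 markers summed to 613 to 1068 FPKM in the controls and 1537 to 2055 FPKM at 1 h. At 6 h they summed to 699 to 2628 FPKM, and the part of those cells was not tested.

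**Figure D5:**
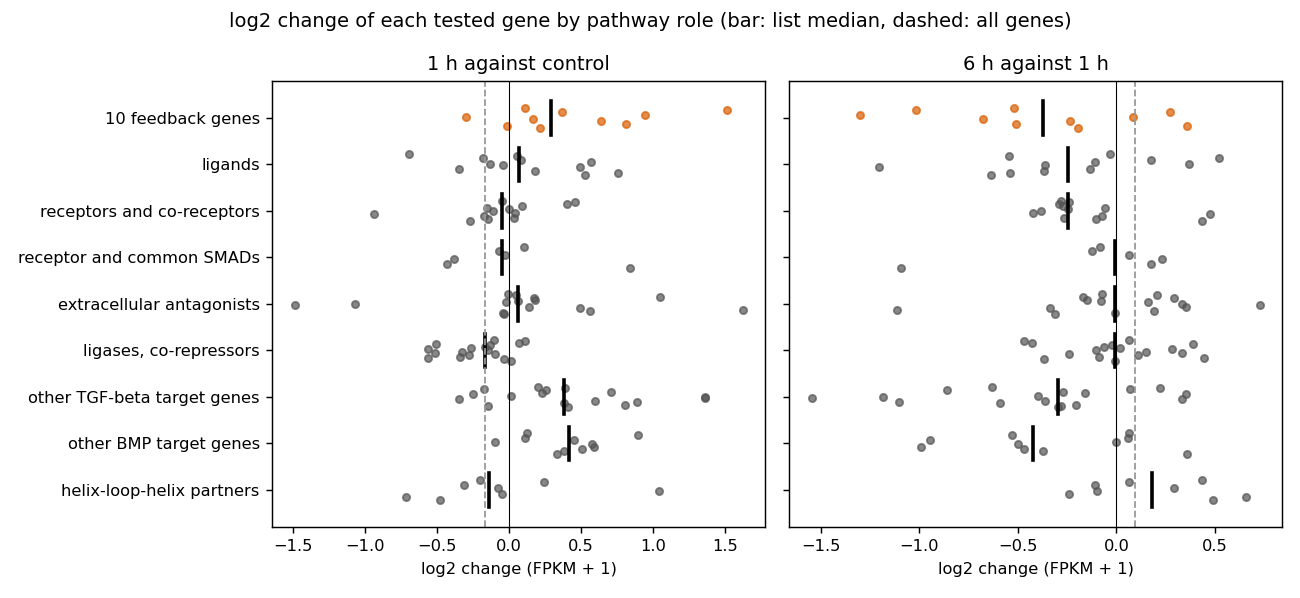
log2 change on the log2(FPKM + 1) scale (x axis) of every tested gene in each role list (rows), at 1 h against control (left) and 6 h against 1 h (right); points are genes, the black bar is the list median and the dashed line the median of all genes tested. The 10 feedback genes (orange) have medians of 0.29 and -0.37, the first of which is 0.02 without control replicate 3; the other TGF-beta target genes have 0.38 and -0.30, and the lists were not tested against each other.

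The transcripts of the members differ in a feature linked to short life. ATTTA pentamers, the core of AU-rich elements, were counted in the 3′ untranslated region of the matching GENCODE M21 transcript. Skil held 14 in 3964 bases, Ski 10 in 3266 and Id4 9 in 3093, and Smad7 held 4 in 1570. Id2 held 3 in 783 bases and Smad6 2 in 448, the members with the highest density, at 3.83 and 4.46 per 1000 bases. Id1, Id3 and Tgif1 held 0, and Bambi 4 in 4004. Over 10621 tested genes with such a region the median was 2 pentamers and 1.38 per 1000 bases. Its relation to the 1 h values was not tested.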

How the data were processed

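Per the file headers, the deposited table gives FPKM per gene for 9 libraries, with the authors' group means, log2 fold changes, p-values and q-values (DEGseq) and Mfuzz clusters with a membership fraction. Tools listed in the submitters' processing notes are RSEM 1.2.12, HISAT2 2.0.4 and Bowtie2 2.2.5, with the build mm10 and no roles, so how reads matching several transcripts were divided is not given in the sources used here. Of 20717 genes, 17559 had values. Because FPKM sum over a library, more of some transcripts means lower values for the rest. Depth was estimated from low values of transcripts of 400 to 1200 bases. A share of 88.2% to 92.7% of them per library fell at most 0.2 from a whole read (40% by chance). No count test was used, since reads could not be recovered throughout.

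Genes reaching 1 FPKM in 3 or more libraries (11460) entered a limma fit (version 3.58.1, R 4.3.3) of log2(FPKM + 1), a scale that understates the change of low genes, with a variance trend, all 9 libraries in 1 fit and 6 residual degrees of freedom. The test was two-sided, with Benjamini-Hochberg adjustment over all genes and a threshold of 0.05. It was also run on simulated data with independent noise and 1 spread per gene for all groups. Those data held no libraries that stand apart, so they do not bear on the calls of Smad7 and Skil. Alternatives were pseudocounts of 0.1 and 5, no filter or 5 FPKM, median-of-ratios and quantile scaling, fits of only 2 groups, a replicate block, no trend, array weights and leaving out libraries. Deviations of same-numbered libraries of the control and 1 h groups correlated at 0.19, 0.15 and 0.26. Different-numbered libraries of those groups gave -0.28 to 0.17, and different-numbered libraries of the 1 h and 6 h groups reached 0.35. These values do not show that the numbers mark pairs, and the replicate block is an alternative only. In the other comparisons same-numbered libraries gave -0.35 to 0.04. The members and lists were chosen with earlier results of these data known. Genes named from the role lists were those called or else the 2 with the smallest unadjusted p against control, and the 2 genes most correlated with each member with a mean of at least 5 FPKM were named. Promoter windows are RefSeq, GRCm38.p6, the build called mm10 in the labels. Some genes of the role lists are not reported here by name.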

Additional observations from a re-analysis of the deposited data

How the results depend on the processing

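Members called numbered 0 in every comparison with pseudocounts of 0.1 and 5, either filter, both scalings, no variance trend and the replicate block. At 1 h against control 1 member was called with only these groups in the fit (Smad7), 2 with array weights and 2 without 6 h replicate 2 (Smad7 and Skil), so leaving out single libraries gave 0 to 2. It was 1 (Skil) without control replicate 3 and 6 h replicate 2 together, a setting chosen after the data were seen. From 1 h to 6 h 1 member was called with array weights (Skil). The weights did not converge and gave 1340 calls over all genes at 1 h, where the reported fit gave 18. The replicate block changed no other call, with adjusted p of 0.30 for Smad7 and 0.44 for Skil at 1 h. Over all genes the calls at 1 h otherwise numbered 8 to 53 and from 1 h to 6 h 8 to 104 (32 in the reported fit), with 263 under array weights, and at 6 h 25 without 6 h replicate 1 and otherwise 0. Smad7 and Skil kept their direction at 1 h and from 1 h to 6 h under all 21 alternatives, at 1.33 to 1.68 and 0.78 to 1.11 at 1 h, with unadjusted p of at most 0.0061 and 0.048.

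Signs reversed as follows. Id1 at 1 h was 0.16 with median-of-ratios scaling, 0.039 with quantile normalization and ranged from -0.57 to 0.33 when single libraries were left out. With array weights Smad6 was -0.27 at 1 h, and at 6 h Id1, Id2, Id3 and Smad6 were -0.28, -0.40, -0.34 and -0.037. Without control replicate 3 and 6 h replicate 2 together, Id4 was -0.058 and Smad6 -0.23 at 1 h. At 6 h the same setting gave Id1 -0.00032, Id2 -0.33, Id3 -0.19, Smad6 -0.011, Ski 0.026, Skil 0.19, Tgif1 0.045 and Bambi -0.058, and from 1 h to 6 h Tgif1 0.013. Ski from 1 h to 6 h was -0.037 with median-of-ratios scaling and -0.0077 with quantile normalization. Leaving out single libraries gave ranges of -0.058 to 0.45 for Id4 at 1 h, -0.23 to 0.81 for Smad6 at 1 h, -0.12 to 0.27 for Tgif1 at 1 h, -0.21 to 0.69 for Id1 at 6 h, -0.36 to 0.65 for Id2 at 6 h, -0.076 to 0.77 for Id3 at 6 h, -0.63 to 0.086 for Skil at 6 h, -0.81 to 0.12 for Tgif1 at 6 h, -0.19 to 0.14 for Bambi at 6 h, -0.032 to 0.23 for Ski from 1 h to 6 h and -0.92 to 0.013 for Tgif1 from 1 h to 6 h. Id4 rests on as few as 31 estimated reads in a library, and each group holds 3 libraries. Id4 was below the filter of 5 FPKM and has no value there.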
